A study of Mus musculus with 9 samples.

Results

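The genes described here encode the intermediate filaments of the lens and the membrane skeleton to which they attach. They are 10 genes of the 47729 listed, chosen by name: *Bfsp1*, *Bfsp2*, *Vim* and *Nes* for the filaments, *Sptan1*, *Sptbn1*, *Ank2* and *Tmod1* for the spectrin-actin skeleton, and *Ezr* and *Prx* for its links to the plasma membrane. All 10 were found once in each table and all passed the filter on low counts. RNA was sequenced from whole newborn lenses of wild-type *FVB/N* mice, of mice hemizygous for *Le-Cre* and of mice hemizygous for *P0-3.9GFPCre*, each line being represented by 3 pools of 6 lenses from 3 mice. Both transgenes express CRE and GFP under the *Pax6* P0 promoter. Both are expressed in the lens placode and later lens epithelium, in other ocular surface ectoderm, in the developing retina and in the pancreas. The paper reports more CRE transcript and protein in newborn *Le-Cre* lenses than in lenses of the other transgenic line. In that other line, but not in *Le-Cre*, it reports widespread CRE activity outside the eye, beginning before the lens placode forms. Both transgenic lines were kept on the *FVB/N* background, and no floxed allele was named for any group. The comparisons are between lines that differ in the transgene carried. The sum of Y-linked genes given below also varied between pools, and was lower in all *Le-Cre* pools than in the *FVB/N* pools. The main test did not separate the transgene from that sum. Each transgene was sequenced here in 1 line, so the transgene and its insertion site cannot be told apart in these data. The paper reports normal eyes in hemizygotes of both lines on this background, and microphthalmia in *Le-Cre* homozygotes, which were not sequenced. It reports that homozygotes of another, now extinct founder line of the *Le-Cre* construct, with a different insertion site, also had microphthalmia. A whole lens contains epithelial and fiber cells, so that fewer cells of a type and less RNA per cell cannot be told apart in any value below.

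In lens fiber cells, BFSP1 (filensin) and BFSP2 (phakinin, also called CP49) copolymerize into beaded filaments, a filament known only from the lens, whereas vimentin forms ordinary intermediate filaments in epithelial and young fiber cells. Spectrin tetramers crosslinked by short actin filaments line the fiber cell membrane, with tropomodulin capping the pointed ends of the actin filaments and ankyrin anchoring spectrin to membrane proteins. *FVB/N* mice are known, like 129 strains, to carry a deletion in *Bfsp2* and to lack beaded filaments. As all 3 lines share this background, no group here stands for a lens with normal *Bfsp2*. Reads per exon were not analysed here, so the allele itself was not examined.

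The pools held between 20670968 and 28098059 expected counts, of which 16 crystallin genes took 39.1% to 43.0%. Markers of the lens were high in every pool, with 8 lens fiber genes summing to between 191418 and 211739 TPM (a level per transcript length, scaled to 1000000 transcripts). Markers of other tissues were lower but not all absent. Blood markers, mainly globins, summed to between 85.2 and 263 TPM and vessel markers to between 19.6 and 39.7 TPM. The corneal keratins *Krt5*, *Krt12*, *Krt13*, *Krt14* and *Krt15* lay below 0.5 TPM in every pool, as did 3 of 5 mesenchymal markers (*Col1a1*, *Dcn* and *Lum*) and 3 of 7 neural retina markers (among them *Crx* and *Neurod1*), these lists summing to at most 2.49 and 6.25 TPM. Macrophage and pigmented cell markers summed to at most 1.81 and 7.43 TPM. The summed level of 4 Y-linked genes ranged, per 1000000 counts, from 121 to 193 in *FVB/N*, from 1.66 to 135 in *P0-3.9GFPCre* and from 0.602 to 74.2 in *Le-Cre*. All *Le-Cre* pools thus lay below the *FVB/N* pools in this sum, whereas the *P0-3.9GFPCre* pools overlapped both other lines.

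Of the 10 genes, *Bfsp2* has an annotation that bears on how its level is read. It lies on the reverse strand at chr9:103424924-103480420 (GRCm38) and has 2 annotated isoforms in GENCODE M21. *Bfsp2-201* is the coding transcript, with 1662 bases in 7 exons. *Bfsp2-202* has 772 bases in 5 exons and no annotated coding sequence. It lacks the first 3 exons of the coding transcript, which span 686, 83 and 157 bases, and begins with a 36-base exon of its own at chr9:103449061-103449096 before joining the exon that is the fourth of *Bfsp2-201*. The junctions that tell the isoforms apart are shown because the levels of *Bfsp2* depend on the division of reads between them, with the shared downstream exon (chr9:103448696-103448710) in capitals and the isoform-specific exon (chr9:103449061-103449075 for *Bfsp2-202*, chr9:103449805-103449819 for *Bfsp2-201*) in lower case, 5′ to 3′ on the transcribed strand.
Bfsp2-202, exon 1 to exon 2: agatgcttgctatagGATGTGAAGGTTCTG
Bfsp2-201, exon 3 to exon 4: agaagctatgaagagGATGTGAAGGTTCTG

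*Bfsp1*, encoding filensin, was the most abundant of the 10 genes in every line and ranked 29 among all listed genes in *FVB/N* by TPM. Its level was 2307 ± 90.2 TPM in *FVB/N*, 2373 ± 20.8 in *P0-3.9GFPCre* and 2357 ± 100 in *Le-Cre* (SD, n = 3 pools in each line, as throughout). Vimentin followed at 815 ± 83.3 TPM in *FVB/N* and rank 76. *Sptan1* (αII-spectrin) stood at 571 ± 41.8 TPM, *Ank2* (ankyrin-B) at 313 ± 13.5 and *Sptbn1* (βII-spectrin) at 264 ± 23.6. Thus the membrane skeleton genes *Sptan1*, *Ank2* and *Sptbn1* all exceeded *Bfsp2*, which encodes the obligate filament partner of filensin and reached 186 ± 14.0 TPM. *Ezr*, whose product links actin to membrane proteins, was present at 140 ± 15.1 TPM, *Tmod1* at 36.4 ± 4.25 and *Prx* (periaxin, a PDZ protein of the fiber cell membrane) at 36.0 ± 0.907. *Nes* (nestin), a filament protein known from neural progenitors, was the lowest at 12.4 ± 1.97 TPM and rank 4445. In *FVB/N* the pools of neighbouring genes in this order did not overlap, apart from *Tmod1* (32.2 to 40.7 TPM) and *Prx* (35.3 to 37.0 TPM), whose order was the opposite in *Le-Cre*.

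**Figure D1:**
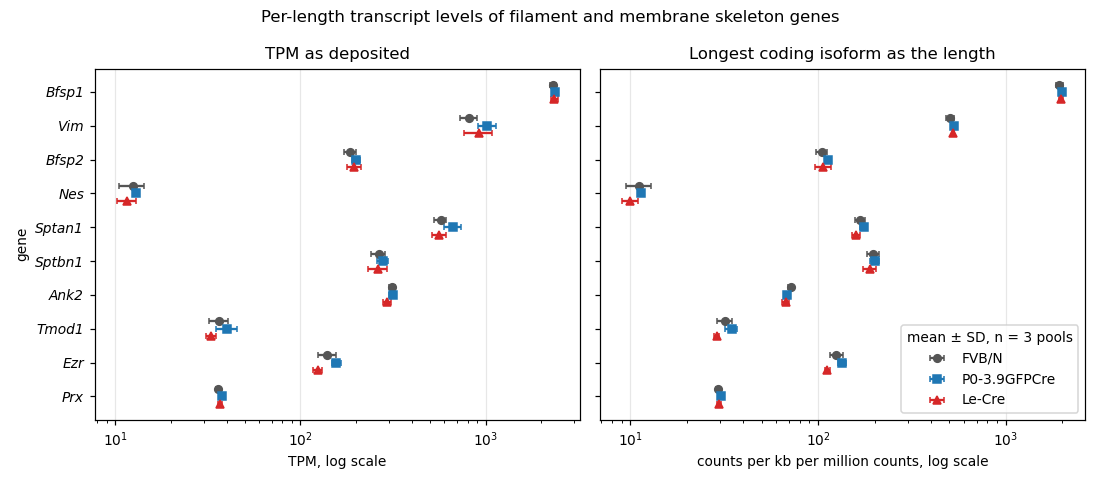
Levels of the 10 genes in 3 lines (mean ± SD, n = 3 pools, log axes), as deposited TPM on the left and as counts per kilobase of the longest coding isoform per 1000000 counts on the right. *Bfsp1* was highest and *Nes* lowest on both scales, whereas *Sptan1* and *Ank2* lay further to the left on the right-hand scale.

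The levels per length depended on the isoforms to which reads were assigned. RSEM divides each gene's reads by the mean length of its isoforms, weighted by their estimated abundance, and this length was 2164 to 2598 bases for *Sptan1*, against 8018 bases for its longest coding isoform. With counts divided by the longest coding isoform instead, *Sptbn1* stood above *Sptan1* in all 3 lines, and *Ank2*, whose longest coding isoform has 14305 bases, fell below *Ezr* and *Bfsp2*. *Bfsp1*, *Vim* and *Nes* kept the first, second and last places on both scales. The placing of αII- against βII-spectrin thus cannot be read from these tables without choosing a length.

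For *Vim* the mean isoform length also varied between pools. It was 1387, 1397 and 1756 bases in the *FVB/N* pools, 1428, 1173 and 1281 in the *P0-3.9GFPCre* pools and 1698, 1305 and 1255 in the *Le-Cre* pools, in the order of replicates 1, 2 and 3. Over the same pools *Vim* measured 878, 848 and 721 TPM, 932, 1148 and 984 TPM, and 737, 1020 and 1009 TPM. The pools with the longest mean isoform, *FVB/N* replicate 3 and *Le-Cre* replicate 1, had the lowest TPM. In CPM (normalized counts per 1000000, scaled by edgeR's TMM method), which take no account of isoform length, *Vim* varied by a coefficient of variation of 4.04% over the 9 pools, compared with 15.1% in TPM. The corresponding values for *Sptan1* were 5.72% and 11.3%. Differences of the 10 genes between lines were tested on counts with this TMM scaling and are shown in CPM. TPM was used for levels between genes, for ratios within a pool and for sums over marker lists.

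**Figure D2:**
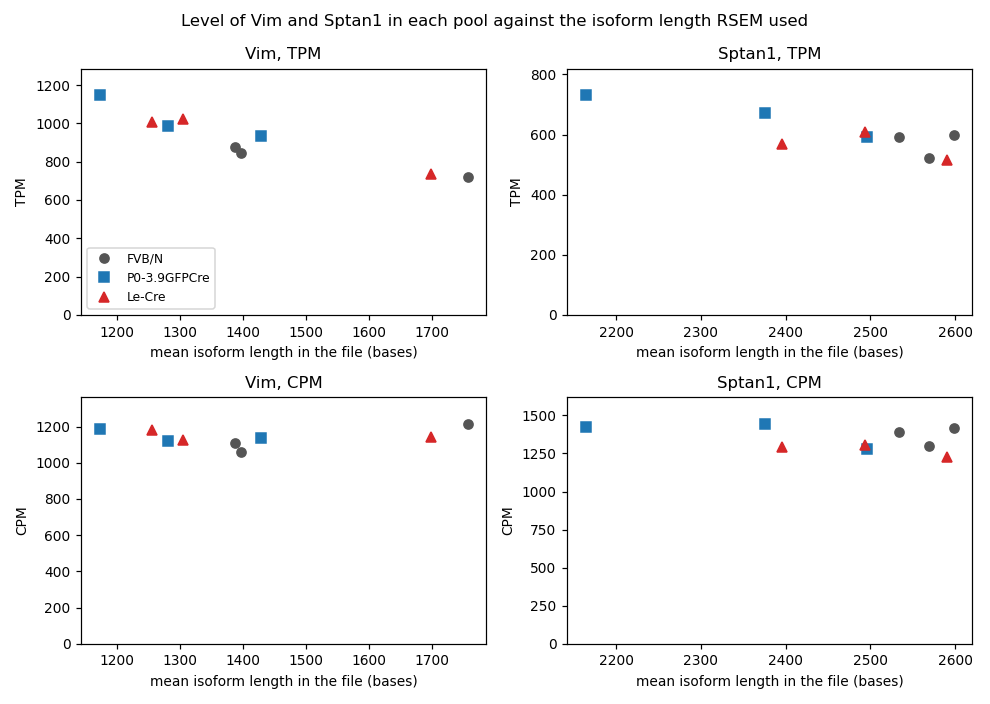
*Vim* (left) and *Sptan1* (right) in each of the 9 pools as TPM (top) and CPM (bottom), plotted against the mean isoform length in bases given in the deposited tables, with symbols for the line. *Vim* TPM spans 721 to 1148 and is lower in pools with a longer mean isoform, while *Vim* CPM spans 1061 to 1215.

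In the beaded filament pair, *Bfsp1* measured 4443, 4652 and 4942 CPM in the *FVB/N* pools, 4415, 4772 and 4738 CPM in *P0-3.9GFPCre* and 4632, 4647 and 4724 CPM in *Le-Cre*. The 3 lines overlapped, and the *Le-Cre* pools lay within the range of the *FVB/N* pools. The log2 difference between *Le-Cre* and *FVB/N* was -0.0033 ± 0.063 (SE), and that between *P0-3.9GFPCre* and *FVB/N* was -0.011 ± 0.063. *Bfsp2* measured 176, 186 and 169 CPM in *FVB/N*, 174, 185 and 193 CPM in *P0-3.9GFPCre* and 168, 161 and 202 CPM in *Le-Cre*. The *Le-Cre* pools held both the lowest and the highest of the 9 values, and the lines overlapped. The log2 differences of *Bfsp2* were 0.00011 ± 0.086 for *Le-Cre* and 0.056 ± 0.086 for *P0-3.9GFPCre*, both relative to *FVB/N*.

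The transcripts of the filament partners were far from equal in these lines, none of which stands for a lens with normal *Bfsp2*. In TPM, *Bfsp1* exceeded *Bfsp2* 12.4-fold in *FVB/N*, 11.9-fold in *P0-3.9GFPCre* and 12.0-fold in *Le-Cre*, from *Bfsp2* to *Bfsp1* ratios of 0.0806 ± 0.0061, 0.0838 ± 0.0034 and 0.0832 ± 0.010. With counts divided by the longest coding isoform, the *FVB/N* ratio was 0.0542 ± 0.0046, an 18.5-fold excess. On both scales the ratio takes all reads of *Bfsp2*, including those assigned to its isoform without coding sequence. The ratio in TPM overlapped between lines in all 3 comparisons, with exact two-sided permutation p of 0.9 for *Le-Cre* against *FVB/N*, 0.5 for *P0-3.9GFPCre* against *FVB/N* and 0.8 for *Le-Cre* against *P0-3.9GFPCre*. Adjusted over the 9 ratio comparisons made, these became 1, 0.9 and 1, and 3 pools against 3 cannot give a p below 0.1.

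The mean isoform length of *Bfsp2*, 1007 to 1084 bases, lay closer to the 772 bases of *Bfsp2-202* than to the 1662 bases of the coding transcript. Taking the annotated lengths as those used by RSEM, the short isoform was assigned 68.7 ± 2.04% of *Bfsp2* TPM in *FVB/N*, 66.7 ± 2.03% in *P0-3.9GFPCre* and 72.0 ± 2.0% in *Le-Cre*. The *Le-Cre* pools (69.8% to 73.6%) lay above the *P0-3.9GFPCre* pools (65.0% to 69.0%), and both overlapped the *FVB/N* pools (66.4% to 70.2%). These shares were examined only as a description and were not tested. They place the coding isoform at 58.1 ± 5.55 TPM in *FVB/N*, 66.0 ± 0.877 in *P0-3.9GFPCre* and 54.7 ± 4.92 in *Le-Cre*. RSEM infers such a division from the annotated isoforms, and a transcript that lacks an exon on the deletion allele is not among the 2 isoforms. The shares of both isoforms therefore hold only under that annotation. They do not show how much of the *Bfsp2* RNA was *Bfsp2-202*, and the values for the coding isoform do not show that an intact coding transcript was present.

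**Figure D3:**
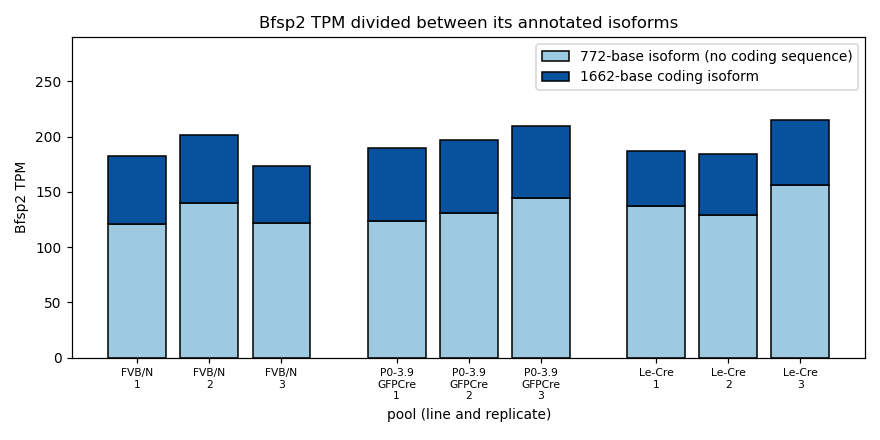
*Bfsp2* TPM in each pool as stacked bars from 0, divided between the annotated 772-base isoform without coding sequence (light) and the annotated 1662-base coding isoform (dark) from the mean isoform length in each table. Transcripts of the deletion allele are not among the annotated isoforms, so neither segment shows how much of that isoform was present. The light segment is the larger in all 9 pools, between 65.0% and 73.6% of the total.

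*Bfsp1* has 2 coding isoforms of 2160 and 2372 bases. By the same calculation the shorter took 93.0 ± 2.11% of its TPM in *FVB/N*, 81.0 ± 14.7% in *P0-3.9GFPCre* and 90.4 ± 2.92% in *Le-Cre*. The wide spread in *P0-3.9GFPCre* rested on replicate 2, at 64.8%, while replicates 1 and 3 were at 93.5% and 84.8%. The total level of *Bfsp1* in that pool, 2376 TPM, lay between those of the other 2 pools of its line.

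Vimentin and nestin, the filaments that the lens shares with other tissues, also overlapped between *FVB/N* and each transgenic line. *Vim* measured 1111, 1061 and 1215 CPM in *FVB/N*, 1136, 1185 and 1121 CPM in *P0-3.9GFPCre* and 1142, 1127 and 1183 CPM in *Le-Cre*. All 6 transgenic pools lay inside the *FVB/N* range, with log2 differences of 0.027 ± 0.064 for *Le-Cre* and 0.023 ± 0.064 for *P0-3.9GFPCre*. The *Vim* to *Bfsp1* ratio in TPM was 0.355 ± 0.047, 0.430 ± 0.046 and 0.391 ± 0.065 in *FVB/N*, *P0-3.9GFPCre* and *Le-Cre*, but 0.261 ± 0.013, 0.268 ± 0.011 and 0.267 ± 0.0043 with the longest coding isoform as the length. The lines overlapped in TPM, with exact permutation p of 0.5 for *Le-Cre* against *FVB/N*, 0.2 for *P0-3.9GFPCre* against *FVB/N* and 0.6 for *Le-Cre* against *P0-3.9GFPCre* (adjusted over 9, 0.9, 0.6 and 0.9).

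*Nes* measured 67.6, 79.3 and 61.4 CPM in *FVB/N*, 67.6, 67.0 and 71.7 CPM in *P0-3.9GFPCre* and 58.8, 65.5 and 58.0 CPM in *Le-Cre*. The *Le-Cre* pools lay below all *P0-3.9GFPCre* pools and overlapped *FVB/N*. In TPM the *Le-Cre* pools (10.27 to 13.05 TPM) also overlapped the *P0-3.9GFPCre* pools (12.32 to 13.25 TPM). The log2 difference was -0.19 ± 0.092 against *FVB/N* (unadjusted p = 0.0615, adjusted p = 0.667, edgeR) and -0.18 ± 0.092 against *P0-3.9GFPCre* (unadjusted p = 0.0805, adjusted p = 0.694), neither of which passed the test.

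**Figure D4:**
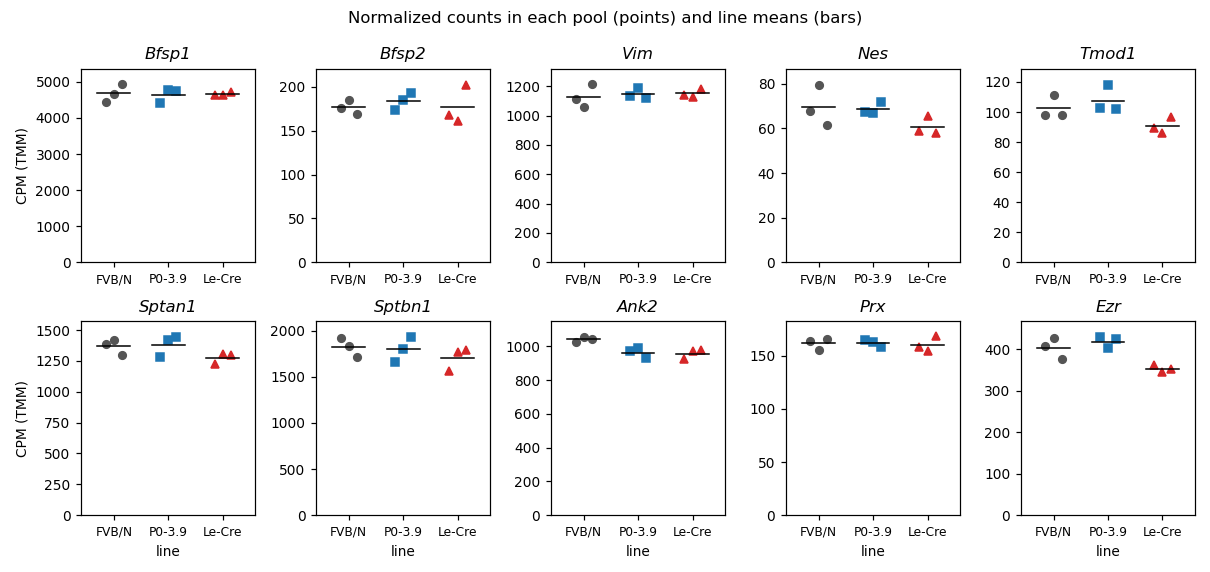
CPM of each of the 10 genes in every pool (points, replicates 1 to 3 from left to right) with the mean of each line (bars), on axes that start at 0. The *Le-Cre* pools of *Ezr*, at 346 to 363 CPM, lie below all pools of the other lines, and *Ank2* in both transgenic lines lies below *FVB/N*.

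Among the spectrin-actin genes, *Sptan1* measured 1390, 1419 and 1302 CPM in *FVB/N*, 1282, 1422 and 1445 CPM in *P0-3.9GFPCre* and 1227, 1305 and 1295 CPM in *Le-Cre*. *Sptbn1* measured 1928, 1835 and 1717 CPM in *FVB/N*, 1667, 1802 and 1931 CPM in *P0-3.9GFPCre* and 1561, 1775 and 1798 CPM in *Le-Cre*. For both spectrin subunits the lines overlapped, the log2 differences of *Le-Cre* from *FVB/N* being -0.10 ± 0.066 for *Sptan1* and -0.094 ± 0.079 for *Sptbn1*. In *P0-3.9GFPCre* they were 0.013 ± 0.066 and -0.022 ± 0.079.

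The *Sptbn1* to *Sptan1* ratio in TPM was 0.463 ± 0.020 in *FVB/N*, 0.420 ± 0.029 in *P0-3.9GFPCre* and 0.465 ± 0.017 in *Le-Cre*. The *P0-3.9GFPCre* pools (0.386 to 0.440) lay below the *FVB/N* pools (0.445 to 0.485) and the *Le-Cre* pools (0.453 to 0.484). Each of these 2 differences had an exact permutation p of 0.1, the smallest possible, and an adjusted p of 0.45. With the longest coding isoform as the length, the ratio was 1.17 ± 0.043, 1.15 ± 0.030 and 1.18 ± 0.054, and the log2 difference between *P0-3.9GFPCre* and *FVB/N* went from -0.14 to -0.035. The mean isoform of *Sptan1* had 2164 to 2496 bases in the *P0-3.9GFPCre* pools, 2534 to 2598 bases in *FVB/N* and 2396 to 2590 bases in *Le-Cre*.

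*Ank2*, encoding the ankyrin that ties spectrin to the fiber cell membrane, measured 1028, 1058 and 1046 CPM in *FVB/N*, 972, 988 and 932 CPM in *P0-3.9GFPCre* and 923, 970 and 979 CPM in *Le-Cre*. Both transgenic lines lay below *FVB/N* without overlap, and they overlapped each other. The log2 difference was -0.12 ± 0.055 in *Le-Cre* (unadjusted p = 0.0440, adjusted p = 0.616, edgeR) and -0.11 ± 0.055 in *P0-3.9GFPCre* (unadjusted p = 0.0598, adjusted p = 0.741). These comparisons share the *FVB/N* pools. In TPM, by contrast, the *P0-3.9GFPCre* pools of *Ank2* (300.0 to 327 TPM) overlapped the *FVB/N* pools (302 to 328 TPM), and the log2 difference was 0.016 with limma, so the sign in this line depended on the scale.

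*Tmod1*, whose product caps actin filaments in the spectrin network, measured 97.8, 112 and 98.1 CPM in *FVB/N*, 103, 118 and 102 CPM in *P0-3.9GFPCre* and 89.6, 86.3 and 96.6 CPM in *Le-Cre*. The *Le-Cre* pools lay below all other pools, though the highest of them, at 96.6 CPM, was close to the lowest *FVB/N* pool, at 97.8 CPM. In TPM the *Le-Cre* pools (30.7 to 34.5 TPM) overlapped the *FVB/N* pools (32.2 to 40.7 TPM). They remained below the *P0-3.9GFPCre* pools (36.2 to 45.8 TPM). The log2 difference was -0.17 ± 0.081 from *FVB/N* (unadjusted p = 0.0528, adjusted p = 0.646, edgeR) and -0.24 ± 0.081 from *P0-3.9GFPCre* (unadjusted p = 0.0115, adjusted p = 0.489). Over 1287 bases *Tmod1* overlaps *Tstd2* on the opposite strand, and as no strand setting is stated, reads there cannot be assigned with certainty. *Tstd2* held 5238 counts over the 9 pools, compared with 21670 for *Tmod1*.

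*Ezr* (ezrin) gave the difference with the smallest p among the 10 genes. It measured 408, 426 and 378 CPM in *FVB/N*, 429, 404 and 423 CPM in *P0-3.9GFPCre* and 363, 346 and 351 CPM in *Le-Cre*. In CPM all *Le-Cre* pools lay below all pools of the other lines, while *FVB/N* and *P0-3.9GFPCre* overlapped. In TPM the *Le-Cre* pools (117 to 130 TPM) overlapped the *FVB/N* pools (124 to 154 TPM). They remained below the *P0-3.9GFPCre* pools (147 to 164 TPM). The log2 difference of *Le-Cre* was -0.19 ± 0.061 from *FVB/N* (unadjusted p = 0.00880, adjusted p = 0.442, edgeR) and -0.24 ± 0.061 from *P0-3.9GFPCre* (unadjusted p = 0.00200, adjusted p = 0.385), and neither passed the test. DESeq2 gave an adjusted p of 0.0249 without and 0.0222 with a prior on fold changes for *Le-Cre* against *P0-3.9GFPCre*, though the change stayed below 1.5-fold. With the Y-linked sum as a covariate the log2 differences were -0.22 and -0.26. The 6 lens epithelium markers summed to between 5855 and 7155 TPM in *FVB/N*, 5585 and 6974 in *P0-3.9GFPCre* and 6827 and 7203 in *Le-Cre*, and all 6 were detected. This sum rested mainly on *Cryab*, and 0 of the 6 markers passed the test. In *Le-Cre* relative to *FVB/N*, the log2 differences were -0.40 ± 0.081 for *Pdgfra* and -0.14 ± 0.066 for *Cdh1*, both with *Le-Cre* pools below *FVB/N*, whereas the lines overlapped for *Foxe3* (-0.27 ± 0.20), *Gja1* (-0.19 ± 0.30), *Pax6* (-0.014 ± 0.063) and *Cryab* (0.092 ± 0.11). In *Le-Cre* relative to *P0-3.9GFPCre*, pools overlapped for all 6 markers, with log2 differences from -0.23 for *Gja1* to 0.15 for *Cryab*. The part of epithelial content in the values of *Ezr* was not tested.

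*Prx*, the partner of ezrin in complexes of the fiber cell membrane, had the smallest coefficient of variation in CPM over the 9 pools, 3.00%, followed by *Bfsp1* at 3.48%, whereas in TPM *Bfsp1* was lower (3.17% against 3.37%). It measured 164, 156 and 166 CPM in *FVB/N*, 165, 164 and 159 CPM in *P0-3.9GFPCre* and 158, 155 and 168 CPM in *Le-Cre*. The lines overlapped, with log2 differences from *FVB/N* of -0.015 ± 0.057 in *Le-Cre* and 0.00085 ± 0.057 in *P0-3.9GFPCre*. Periaxin is also known from myelinating Schwann cells. Of 5 Schwann cell markers, 3 were below 0.5 TPM in every pool, among them *Mbp* and *Sox10*. The sum of the list, nearly all of it from 1 marker, was 200 to 211 TPM in *FVB/N*, 243 to 258 in *P0-3.9GFPCre* and 206 to 215 in *Le-Cre*, and its part in the values of *Prx* was not tested.

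A gene was called when it changed 1.5-fold or more and its adjusted p did not exceed 0.05, and 0 of the 10 genes were called in any comparison by edgeR's quasi-likelihood test over 15557 genes. The background was 0.0643% of all tested genes in *Le-Cre* against *FVB/N* (10 genes), and 0.00% in *P0-3.9GFPCre* against *FVB/N* and in *Le-Cre* against *P0-3.9GFPCre*. At an unadjusted p under 0.05, the counts were 2 of the 10 genes (*Ezr* and *Ank2*) in *Le-Cre* against *FVB/N*, where 7.94% of all genes passed, 0 in *P0-3.9GFPCre* against *FVB/N*, where 6.81% passed, and 2 (*Ezr* and *Tmod1*) in *Le-Cre* against *P0-3.9GFPCre*, where 7.88% passed. DESeq2 and limma also called 0 of the 10 genes. In CPM, pools did not overlap for *Tmod1*, *Ank2* and *Ezr* in *Le-Cre* against *FVB/N* (3 of 10, with 13.5% of all genes). The same held for *Ank2* in *P0-3.9GFPCre* against *FVB/N* (1 of 10, with 12.0%). It also held for *Nes*, *Tmod1* and *Ezr* in *Le-Cre* against *P0-3.9GFPCre* (3 of 10, with 14.1%).

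The precision was high for these abundant genes. All 30 of the 95% confidence intervals, 10 genes in 3 comparisons, lay within 1.5-fold, the outermost bounds being 0.747-fold for *Tmod1* in *Le-Cre* against *P0-3.9GFPCre* and 1.19-fold for *Tmod1* in *P0-3.9GFPCre* against *FVB/N*. Of these intervals, 4 did not include 0 on the log2 scale, and they were not adjusted for multiple testing. The median log2 difference of the 10 genes was -0.099 in *Le-Cre* against *FVB/N* (8 negative, 2 positive), 0.0071 in *P0-3.9GFPCre* against *FVB/N* (4 negative, 6 positive) and -0.064 in *Le-Cre* against *P0-3.9GFPCre* (8 negative, 2 positive). The median of all tested genes was -0.0040, 0.000023 and -0.0018 in the same comparisons.

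**Figure D5:**
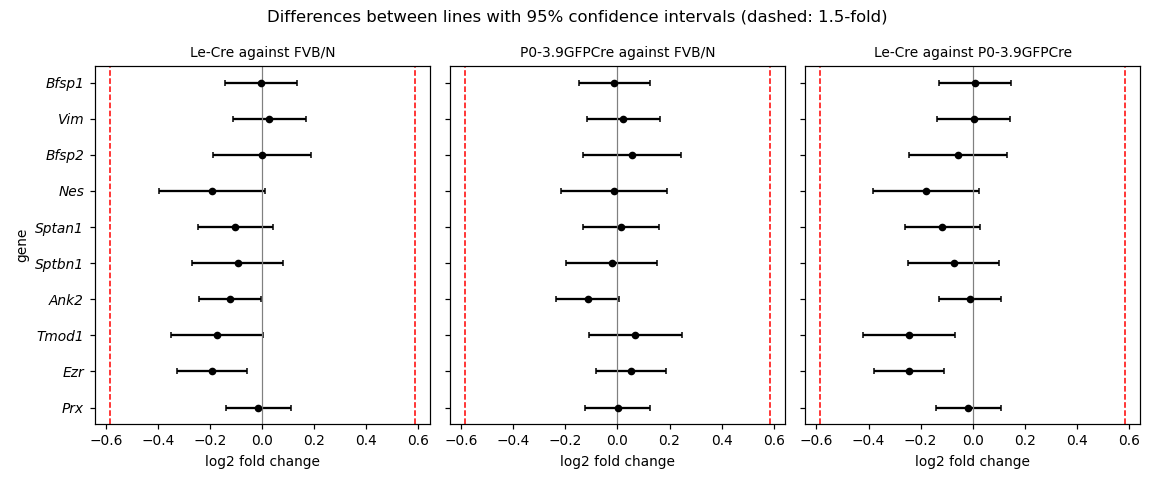
Log2 fold changes of the 10 genes with 95% confidence intervals from edgeR in the 3 comparisons, with dashed lines at 1.5-fold in either direction and a solid line at 0. All 30 intervals lie between the dashed lines, and those of *Ezr* (2), *Tmod1* (1) and *Ank2* (1) do not include 0.

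The relatives of these genes in the same protein families show which members the newborn lens transcribes. Of the β-spectrins, *Sptbn1* exceeded *Sptb* (47.1 ± 14.9 TPM in *FVB/N*), while *Sptbn4* and *Sptbn5* were at 0.0567 ± 0.0231 and 0.0533 ± 0.0058 TPM. Of the ankyrins, *Ank3* was at 41.0 ± 3.63 and *Ank1* at 5.18 ± 1.27 TPM, both below *Ank2*. *Tmod1* stood above *Tmod2* (4.20 ± 0.379 TPM), *Tmod3* (2.67 ± 0.197 TPM) and *Tmod4* (0.733 ± 0.247 TPM). *Ezr* led its family, with *Rdx* (radixin) at 48.0 ± 1.17 TPM and *Msn* (moesin) at 8.21 ± 1.25 TPM. Of the other intermediate filament genes *Synm* (synemin), which copolymerizes with vimentin, was at 42.4 ± 2.88 TPM, whereas *Des*, *Prph*, *Ina*, *Nefl*, *Nefm* and *Nefh* were each below 0.1 TPM on average in *FVB/N*. *Capn3*, a calpain whose lens forms are known to cleave skeletal proteins, was at 990 ± 129 TPM.

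In the wider lists, 0 genes passed the cutoff in any of the 3 comparisons. At an unadjusted p under 0.05 in *Le-Cre* against *FVB/N*, these were 3 of 18 tested genes (of 27 listed) for intermediate filaments and their linkers, 9 of 35 (of 37) for the spectrin-actin skeleton, 2 of 13 for ezrin and periaxin complexes and 2 of 10 for calpains, with 7.94% over all tested genes. In *P0-3.9GFPCre* against *FVB/N* the counts were 1, 5, 3 and 2 (6.81% over all genes), and in *Le-Cre* against *P0-3.9GFPCre* they were 0, 7, 2 and 2 (7.88%). These lists contain the 10 genes described above, and *Ppl* stands in 2 of them.

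In *Le-Cre* relative to *FVB/N*, *Ank3* (ankyrin-G) differed by -0.34 ± 0.087 on the log2 scale and *Epb41* (protein 4.1R, which stabilizes spectrin-actin junctions) by -0.23 ± 0.067, with *Le-Cre* pools below *FVB/N* in both. *Synm*, *Plec* (plectin, a linker of intermediate filaments) and *Macf1* differed by -0.16 ± 0.055, -0.16 ± 0.067 and -0.15 ± 0.064. *Cd44*, a hyaluronan receptor bound by ezrin, was at 72.6 ± 3.26 CPM in *Le-Cre* and 56.8 ± 5.65 CPM in *FVB/N*, a log2 difference of 0.36 ± 0.11 in the direction opposite to that of *Ezr*. None of these passed the test (adjusted p from 0.306 to 0.616, edgeR). Of the calpains, *Capn1* was at 7.32 ± 1.09 CPM in *Le-Cre* and 9.46 ± 1.79 CPM in *FVB/N*, and *Capn6* lay below 1 CPM on average in all lines.

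In *P0-3.9GFPCre* relative to *FVB/N*, *Capns1*, the small regulatory calpain subunit, was at 340 ± 49.0 against 262 ± 18.6 CPM (log2 difference 0.38 ± 0.11), and *Cast*, the calpain inhibitor, at 14.8 ± 0.961 against 11.8 ± 0.410 CPM (0.32 ± 0.096), both without overlap of pools. *Msn* differed by 0.28 ± 0.10, *Ahnak* (desmoyokin) by -0.32 ± 0.10 and *Ppl* (periplakin) by 0.28 ± 0.11, while *Gypc* and *Actn1* of the spectrin-actin list differed by 0.45 ± 0.14 and 0.27 ± 0.096. In *Le-Cre* relative to *P0-3.9GFPCre*, *Epb41l1* differed by -0.38 ± 0.099, *Epb41* by -0.20 ± 0.067, *Cd44* by 0.28 ± 0.11 and *Capns1* by -0.37 ± 0.11. Adjusted p-values of these genes lay between 0.393 and 0.662 (edgeR), so that none of the named differences passed the test. *Eppk1* of the filament list was not analysed here.

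The search covered the 7650 genes with a mean of at least 10 CPM, except the 10 genes described here, which were left out of the ranking. Across the 9 pools, the genes whose log2 CPM followed *Bfsp1* most closely were *Pygb* (Pearson r = 0.93), *Tmem230* (0.89) and *Lonp2* (0.87). For *Bfsp2* they were *Lamtor4* (0.96), *Tanc1* (0.95) and *Fam160b1* (0.92), and for *Vim* they were *Ssr2* (0.93), *Sumf2* (0.93) and *Ube2l3* (0.91). These are the highest of many values over 9 pools, where all genes of a pool share its library depth, and are given as a description. No other gene of the filament and skeleton lists was among them, and how the 10 genes followed each other was not examined.

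By position on GRCm38 (GENCODE M21), *Bfsp1* (ENSMUSG00000027420) lies at chr2:143826528-143863173, *Vim* (ENSMUSG00000026728) at chr2:13573927-13582826, *Sptan1* (ENSMUSG00000057738) at chr2:29965560-30031451 and *Nes* (ENSMUSG00000004891) at chr3:87971078-87980451. *Ank2* (ENSMUSG00000032826) lies at chr3:126921612-127499350, *Tmod1* (ENSMUSG00000028328) at chr4:46038935-46116032, *Prx* (ENSMUSG00000053198) at chr7:27499324-27520214 and *Bfsp2* (ENSMUSG00000032556) at the place given above. *Sptbn1* (ENSMUSG00000020315) lies at chr11:30099395-30268175 and *Ezr* (ENSMUSG00000052397) at chr17:6738041-6782784. The coordinates span whole genes, and reads were counted over their annotated exons. Besides *Tmod1*, exons of *Bfsp2*, *Prx*, *Ank2*, *Sptbn1* and *Ezr* overlap a gene on the opposite strand, by 201, 300, 182, 134 and 4 bases. RSEM's posterior SD of a count, which reflects reads shared with other genes, was at most 0.614% of the count over the 10 genes and 9 pools.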

How the data were processed

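RNA-Seq of polyadenylated RNA was performed by the authors with single-end reads on 9 pools of newborn lenses, 3 per line. Per the labels, reads were trimmed with Trimmomatic 0.36 and quantified on GRCm38 with RSEM 1.3.0, and the paper's methods name GSNAP for mapping. The gene annotation is not given in the sources used here. The deposited expected counts are RSEM's estimates of reads per gene without normalization. The deposited TPM and FPKM values were scaled by the authors for isoform length and library size, and the isoform lengths and posterior SD in the same tables were read as well. Of 47729 gene IDs, 47224 matched GENCODE M21, and 27488 of 30992 single-isoform genes had the M21 length (tolerance 0.5 bases).

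Expected counts were rounded and tested in R 4.3.3 with edgeR 4.0.16 (TMM, filterByExpr, quasi-likelihood test, 1 coefficient per line over all 9 pools, Benjamini-Hochberg adjustment over 15557 genes). The study's cutoff of 1.5-fold and adjusted p of 0.05 was used. The authors tested with DESeq2 1.10.1, and DESeq2 1.42.0 and limma 3.58.1 (log2 of TPM plus 1) were alternatives here. The standard error of a log2 fold change was derived from its quasi-likelihood F statistic. Ratios within a pool were compared in log2 by exact permutation. The test was also run on simulated counts with changes of 1.5-fold or more in abundant genes. That run does not show how well smaller changes are detected.

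The 10 genes and all lists were chosen with earlier results of these data known. From each list, genes past the cutoff, or otherwise up to 3 with the smallest unadjusted p in a comparison, were named, together with the 3 genes most correlated with *Bfsp1*, *Bfsp2* and *Vim* among those with a mean of at least 10 CPM. Ratios with the longest coding isoform as the length, the isoform shares and the family levels were added after the data had been seen. Some genes of the lists are not reported here.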

Additional observations from a re-analysis of the deposited data

How the results depend on the processing

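None of the 10 genes passed the cutoff under any of the 12 alternatives to the fit or in the 9 fits that each left out 1 pool, and *Ezr*, *Tmod1*, *Nes*, *Sptan1* and *Sptbn1* kept a negative difference in *Le-Cre* against both other lines throughout. The counts of all genes called were less stable, and the cause was not tested. For *Le-Cre* against *FVB/N*, 10 genes became 131 without the filter on low counts, 5 with a mean of at least 10 counts, 49 with DESeq2 without prior, 1 with limma on TPM, 2 with the replicate block, 0 with the Y-linked sum as a covariate, and 0 (without *FVB/N* replicate 2) to 10 when 1 pool was left out. For *P0-3.9GFPCre* against *FVB/N*, 0 genes became 93 without the filter, 3 and 1 with DESeq2 without and with prior, and 0 to 14 (without *FVB/N* replicate 2) when 1 pool was left out. For *Le-Cre* against *P0-3.9GFPCre*, 0 genes became 123 without the filter, 35 and 4 with DESeq2, 1 with limma, 31 with only the pools compared, and 0 to 18 (without *FVB/N* replicate 2) when 1 pool was left out. Replicate numbers recur in all lines and were taken from the sample titles, although for 1 *FVB/N* pool (replicate 3) the number in the description differs from that in the title. However, pools with the same number did not deviate together (mean correlation of residuals 0.030, from -0.10 to 0.12, over 9 pairs), so the numbers were not read as pairs, and under the block 0 of the 10 genes were called.

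The median of the 10 genes moved to -0.018 (*Le-Cre* against *FVB/N*), 0.087 (*P0-3.9GFPCre* against *FVB/N*) and -0.13 (*Le-Cre* against *P0-3.9GFPCre*) with limma on TPM, and to 0.058 for *P0-3.9GFPCre* against *FVB/N* with total counts as the only scaling. Leaving out 1 pool, it ranged from -0.12 to -0.014 (without *Le-Cre* replicate 1) for *Le-Cre* against *P0-3.9GFPCre*.

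Signs turned mostly where differences were near 0, the exception being *Ank2* in *P0-3.9GFPCre*, from -0.11 in counts to a positive value in TPM. For *Le-Cre* against *FVB/N* these were *Bfsp1* (0.032 with total counts, 0.000054 with a mean of at least 10 counts, 0.031 with limma), *Prx* (0.020 and 0.026 with total counts and limma) and *Bfsp2* (-0.00029 without crystallins, -0.0031 without the filter, -0.0057 with the replicate block, -0.13 with the Y-linked sum). For *P0-3.9GFPCre* against *FVB/N* they were *Bfsp1* (0.040 with total counts, 0.041 with limma), *Nes* (0.035, 0.067 and, with the Y-linked sum, 0.013), *Sptbn1* (0.028 and 0.075), *Ank2* (0.016 with limma), *Prx* (-0.0036 without the filter, -0.011 with the Y-linked sum) and *Bfsp2* (-0.014 with the Y-linked sum). For *Le-Cre* against *P0-3.9GFPCre* they were *Bfsp1* (-0.0078 with total counts, -0.010 with limma), *Vim* (-0.013 and -0.16) and *Ank2* (0.0098 with the Y-linked sum). The log2 difference of the *Bfsp2* to *Bfsp1* ratio between *Le-Cre* and *FVB/N*, 0.043 in TPM, was -0.0038 in expected counts and per longest coding isoform, a scale chosen after seeing the data.

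With 1 pool left out, the lowest and highest log2 differences of genes whose sign turned were, for *Le-Cre* against *FVB/N*, -0.036 to 0.040 for *Bfsp1*, -0.11 to 0.067 for *Bfsp2*, -0.014 to 0.085 for *Vim* and -0.052 to 0.013 for *Prx*. For *P0-3.9GFPCre* against *FVB/N* they were -0.047 to 0.030 for *Bfsp1*, -0.020 to 0.079 for *Vim*, -0.095 to 0.091 for *Nes*, -0.022 to 0.066 for *Sptan1*, -0.075 to 0.032 for *Sptbn1* and -0.027 to 0.019 for *Prx*. For *Le-Cre* against *P0-3.9GFPCre* they were -0.026 to 0.028 for *Bfsp1*, -0.16 to 0.0090 for *Bfsp2*, -0.017 to 0.027 for *Vim*, -0.031 to 0.017 for *Ank2* and -0.053 to 0.010 for *Prx*. The *Bfsp2* to *Bfsp1* ratio ranged from -0.052 to 0.12 (*Le-Cre* against *FVB/N*), from -0.0047 to 0.10 (*P0-3.9GFPCre* against *FVB/N*) and from -0.11 to 0.059 (*Le-Cre* against *P0-3.9GFPCre*), and the *Sptbn1* to *Sptan1* ratio from -0.022 to 0.041 (*Le-Cre* against *FVB/N*).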
